A study of Mus musculus with 12 samples.

Results

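The 8 genes described here, Upk3b, Upk1b, Muc16, Msln, Lrrn4, Krt19, Wt1 and Gpm6a, are markers of mesothelium, the single-layered epithelium that covers the heart as epicardium. They were taken by name from a deposited table of 56350 gene IDs. They were selected on their measured values in the control groups of this study, where they had been seen to differ between TAC and sham surgery, so those control values are given as a description. The measurements are polyadenylated RNA of the apex of the mouse left ventricle in 12 libraries, 3 for each of 4 groups, collected 8 weeks after surgery. The first group, knockout TAC, are mice with a global knockout of lincRNA-p21, a noncoding transcript listed under the symbol Trp53cor1. They underwent transverse aortic constriction (TAC), surgery that narrows the aorta so that the left ventricle pumps against a raised pressure. The second, knockout sham, are knockouts after sham surgery. The groups control TAC and control sham are littermates labelled lincRNA-p21 heterozygous, so the controls also carry 1 knockout allele. Strain, sex, age and the number of animals behind a library were not given in the sources used here, so p-values measure the spread between these libraries, which may in part be technical.

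The epicardium lines the outer surface of the ventricle and faces the pericardial fluid. Its cells keep epithelial keratins and an apical coat of uroplakins and mucins, and in the embryo they give rise to fibroblasts and mural cells of the heart under the control of the transcription factor WT1. In the adult heart it is quiescent and makes up a small part of a piece of ventricular wall, and after injury it can become active again. Several of its markers are shared with the mesothelium of the pericardium, pleura and peritoneum.

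The 8 genes lie on 7 chromosomes (positions from the GENCODE annotation of GRCm38). Upk3b (ENSMUSG00000042985.7, chr5:136038496-136046487, + strand) and Upk1b (ENSMUSG00000049436.5, chr16:38773184-38800328, − strand) encode uroplakins, proteins of the apical membrane. Muc16 (ENSMUSG00000109564.1, chr9:18495455-18674530, − strand) encodes a membrane mucin, and Msln (ENSMUSG00000063011.7, chr17:25748613-25754378, − strand) encodes mesothelin, a surface protein that binds MUC16. Krt19 (ENSMUSG00000020911.14, chr11:100140810-100148665, − strand) encodes a keratin of simple epithelia. Lrrn4 (ENSMUSG00000043110.2, chr2:132868305-132880891, − strand) encodes a leucine-rich repeat membrane protein. Gpm6a (ENSMUSG00000031517.8, chr8:54954843-55060871, + strand) encodes a membrane glycoprotein that is also abundant in neurons. Wt1 (ENSMUSG00000016458.14, chr2:105126529-105173616, + strand) encodes the transcription factor, which endothelial and other cells of the heart can also express. Muc16 overlaps the predicted gene Gm25295 on the opposite strand, which had 0 reads. Gpm6a overlaps 5 unconfirmed transcripts on its own strand, which had 0 to 3 reads over the 12 libraries.

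Since most of these genes varied together from library to library, their promoters were read from RefSeq (GRCm38.p6, 250 bases before to 50 after the start). The table held promoters for 4 of the 8 genes, 5 sequences in all, with a pair of promoters for Gpm6a; Upk1b, Msln, Krt19 and Wt1 had no entry. The sequences below, from genes of the uroplakin, leucine-rich repeat and mucin families, are printed 5′ to 3′ on the gene's strand, with matches to GGAATG or its reverse complement CATTCC, the core motif bound by TEAD factors, in capitals. Their positions are chr5:136038246-136038545 (+ strand) for Upk3b, chr2:132880813-132881112 (− strand) for Lrrn4 and chr9:18674554-18674853 (− strand) for Muc16.
Upk3b: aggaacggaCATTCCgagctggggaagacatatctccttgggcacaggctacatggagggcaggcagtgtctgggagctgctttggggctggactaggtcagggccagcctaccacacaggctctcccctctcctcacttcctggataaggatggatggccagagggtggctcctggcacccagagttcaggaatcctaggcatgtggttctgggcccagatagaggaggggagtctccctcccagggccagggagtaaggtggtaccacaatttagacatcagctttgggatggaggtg
Lrrn4: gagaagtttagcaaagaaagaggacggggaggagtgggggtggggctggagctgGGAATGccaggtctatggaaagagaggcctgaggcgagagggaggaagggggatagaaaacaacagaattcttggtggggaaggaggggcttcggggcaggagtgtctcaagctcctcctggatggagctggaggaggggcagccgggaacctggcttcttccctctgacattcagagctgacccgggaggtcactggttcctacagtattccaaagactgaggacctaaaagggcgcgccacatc
Muc16: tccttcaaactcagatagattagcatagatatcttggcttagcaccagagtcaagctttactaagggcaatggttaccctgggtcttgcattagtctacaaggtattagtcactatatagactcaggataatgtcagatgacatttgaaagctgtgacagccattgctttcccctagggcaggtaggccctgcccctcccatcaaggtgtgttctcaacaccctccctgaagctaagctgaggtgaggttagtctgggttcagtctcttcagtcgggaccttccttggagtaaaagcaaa
The TEAD motif, searched on both strands, was in 3 of the 5 sequences, from Upk3b, Lrrn4 and Gpm6a. It began at −241 for Upk3b, −196 for Lrrn4 and −125 for Gpm6a, counted from the RefSeq start of that promoter. The Gpm6a match was in the upstream promoter (chr8:54779184-54779483), far before the GENCODE position given above. The other Gpm6a promoter (chr8:54954478-54954777), next to that position, had no match. The Muc16 window also lies outside its GENCODE position. Among 32851 mouse promoters of the same length, 14.7% held the TEAD motif. GTGGGAG or CTCCCAC, the core of a motif bound by WT1, was in 0 of the 5, against 9.73% of all promoters. These matches describe the letters in the window and are not measured binding sites.

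The libraries held between 10323605 and 13238934 reads in genes. Trp53cor1, the deleted gene, had 0 reads in the 6 knockout libraries, which allows up to 3 reads, and 11 reads in the 6 control libraries, 4 of which had at least 1 read. All 10 ventricular cardiomyocyte markers (such as Myh6 and Myl2) were detected. Myl2 had 97412 to 209816 normalised counts a library, against 0 to 212 for Myl7, a gene of the atrial list. Control sham replicate 3 stood apart on the second principal component, at −46.8, and results that rest on it are given with and without it. The next farthest from 0 on that component were knockout TAC replicates 2 and 1, at 33.7 and 22.9; replicate 2 also had the highest mesothelial values of its group. Markers of lung and airway epithelium were near absent: 6 of 10 were listed at 0 in all libraries, and their sum was 9.82 to 14.4 normalised counts in knockout TAC, 6.33 to 15.3 in knockout sham, 8.65 to 11.3 in control TAC and 4.26 to 21.2 in control sham.

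Genes entered the test when 3 or more libraries had a value of 10 or more. All 8 genes did, with unequal margins. Wt1 and Gpm6a reached 10 in all 12 libraries, Upk3b in 10, Msln in 9, Muc16 and Lrrn4 in 8, Krt19 in 7 and Upk1b in 4. No control TAC library reached 10 for Upk1b, Muc16, Lrrn4 or Krt19, which therefore passed through the other groups. To set the genes against each other, levels were divided by length. Per kilobase of annotated exons, Upk3b was the most abundant in knockout TAC at 24.9 ± 15.5 normalised counts per kb (SD, n = 3). It was followed there by Wt1 at 18.1 ± 3.13, Msln at 15.1 ± 12.2, Gpm6a at 12.3 ± 3.604 and Krt19 at 8.79 ± 7.31 counts per kb. Upk1b, at 5.10 ± 4.59, Lrrn4, at 3.20 ± 1.84, and Muc16, at 0.759 ± 0.257 counts per kb, were the lowest, Muc16 with the longest exons (26.35 kb). Neighbours in this order lay within 1 SD of each other, except Muc16, which was below Lrrn4 by more. In control TAC, Wt1 came first at 16.7 ± 11.1 counts per kb, above Gpm6a at 5.45 ± 2.01 and Upk3b at 3.15 ± 2.58. In control sham the order was headed by Upk3b at 38.1 ± 19.3 counts per kb, then Msln at 25.2 ± 13.0, Gpm6a at 19.0 ± 9.06 and Wt1 at 15.7 ± 2.09. The top of the order depends on the length used: per kilobase of the longest annotated transcript, a scale added after the values were seen, Wt1 led in knockout TAC at 36.3 ± 6.28 counts per kb, above Upk3b at 24.9 ± 15.5 and Msln at 21.3 ± 17.2.

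**Figure D1:**
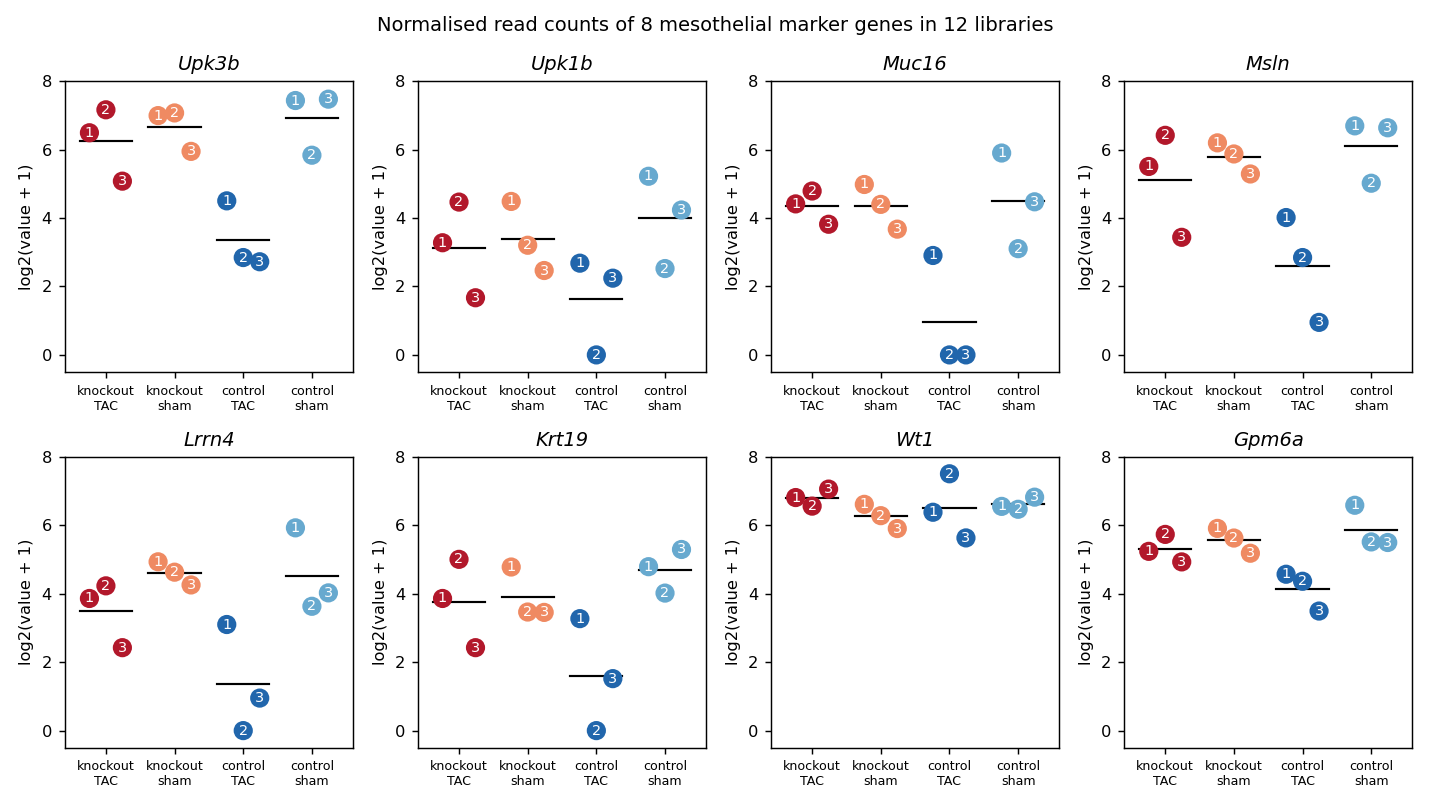
Each panel shows one gene on the scale log2(normalised count + 1); circles are single libraries with their replicate number, and the black line is the mean of the 3 libraries of a group. For all genes but Wt1 the control TAC group has the lowest mean, and in most panels replicate 2 of knockout TAC lies above replicates 1 and 3 and replicate 1 of control TAC above replicates 2 and 3.

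TAC against sham in knockouts compares none of the control libraries in which the genes had been seen to differ. Its SEs and p-values use a spread shared over all 12 libraries, control libraries included. Upk1b entered the test only with the help of control sham, as it reached 10 in 1 library of each knockout group. None of the 8 genes passed the test in this comparison. In bulk RNA, fewer cells of a type and less RNA per cell cannot be told apart, so these values speak of RNA in the piece of tissue. Upk3b had 88.8, 142 and 32.7 normalised counts (reads divided by the library's size factor) in knockout TAC replicates 1 to 3, and 126, 133 and 60.6 in knockout sham. The ranges overlapped, and the third library was the lowest in both groups. The log2 difference was −0.43 ± 0.63 (SE), with a 95% interval of −1.80 to 0.95 (adjusted p = 0.929, limma with Benjamini-Hochberg adjustment over 13916 genes).

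Upk1b had 8.69, 21.1 and 2.18 normalised counts in knockout TAC, from 9, 19 and 2 reads, and 21.4, 8.21 and 4.52 in knockout sham, from 21, 9 and 5 reads. At so few reads the groups spanned nearly the same range, and the log2 difference was −0.25 ± 0.87 (95% interval −2.11 to 1.61, limma adjusted p = 0.969). Muc16 overlapped between the groups, with 20.3, 26.6 and 13.1 normalised counts in knockout TAC and 30.5, 20.1 and 11.8 in knockout sham. Its log2 difference was −0.01 ± 0.77, but the interval from −1.66 to 1.63 leaves room for about a tripling either way (limma adjusted p = 0.998).

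Msln, whose product binds MUC16, had 44.4, 84.3 and 9.82 normalised counts in knockout TAC and 72.2, 57.5 and 37.99 in knockout sham. One TAC library lay above and another below all sham libraries, and the log2 difference was −0.66 ± 0.84 (95% interval −2.49 to 1.16, limma adjusted p = 0.919). Krt19 had 13.5, 31.1 and 4.36 normalised counts in knockout TAC and 26.4, 10.04 and 9.95 in knockout sham, again with the TAC libraries on both sides of the sham libraries. Its log2 difference was −0.14 ± 0.77 (95% interval −1.77 to 1.49, limma adjusted p = 0.981).

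Lrrn4 was the single gene of the 8 whose knockout groups did not overlap. It had 13.5, 17.7 and 4.36 normalised counts in knockout TAC and 29.5, 23.7 and 18.1 in knockout sham, so the gap between the groups was less than 1 normalised count. All TAC libraries were lower than all sham libraries for 8.87% of all tested genes in this comparison. The log2 difference of −1.10 ± 0.75 (95% interval −2.69 to 0.49) did not pass (limma adjusted p = 0.829).

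The remaining pair were better counted. Wt1 had 111, 93.2 and 132 normalised counts in knockout TAC and 96.6, 76.6 and 58.8 in knockout sham. It was the one gene with a positive log2 difference, 0.54 ± 0.35, and it did not pass the test (95% interval −0.20 to 1.29, limma adjusted p = 0.811). Gpm6a had 36.7, 52.1 and 29.4 normalised counts in knockout TAC and 59.0, 48.4 and 35.3 in knockout sham, with a log2 difference of −0.27 ± 0.37 (95% interval −1.04 to 0.50, limma adjusted p = 0.925).

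Of the 8 genes, 0 passed at an adjusted p of 0.05 in the knockouts by limma, where 0.00719% of all tested genes did (1 gene). At an unadjusted p under 0.05, 0 of the 8 did, against 6.68% of all tested genes. The count was also 0 by edgeR, DESeq2 and voom, and without any 1 of the 12 libraries. The median log2 difference of the 8 genes was −0.26, against −0.005 over all tested genes. Without knockout TAC replicate 3 that median was 0.21, and the differences of Upk3b, Upk1b, Muc16, Msln and Krt19 were above 0 (0.16, 0.49, 0.25, 0.18 and 0.53). Without knockout sham replicate 1 the differences of Upk1b, Muc16 and Krt19 were 0.30 each, and without knockout sham replicate 2 that of Muc16 was 0.013. The intervals of all genes but Wt1 reached to −1 or below, a halving.

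In the controls, the same surgery separated the groups for 6 of the 8 genes. These are the values for which the genes were chosen, so they are given as a description and nothing is concluded from them. Upk3b had 21.6, 6.18 and 5.59 normalised counts in control TAC and 172, 56.0 and 176 in control sham. The highest TAC library was below the lowest sham library, and the ratio of the means was 12.1-fold lower after TAC. Msln had 15.1, 6.18 and 0.932 normalised counts in control TAC and 102, 31.3 and 98.4 in control sham, a mean 10.4-fold lower after TAC, with no overlap.

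Muc16 had 6.49, 0 and 0 normalised counts in control TAC and 58.6, 7.60 and 21.2 in control sham. The 0 values stand for no read, which allows up to 3 reads, or 3.09 and 2.80 normalised counts in those libraries; the mean was 13.5-fold lower after TAC on 6 reads in the whole TAC group. Lrrn4 had 7.57, 0 and 0.932 normalised counts in control TAC and 59.7, 11.4 and 15.3 in control sham (10.2-fold lower after TAC). Krt19 had 8.65, 0 and 1.86 normalised counts in control TAC and 26.6, 15.2 and 38.2 in control sham (7.61-fold lower after TAC). Replicate 2 of control TAC thus had no read of Muc16, Lrrn4, Krt19 or Upk1b. Upk1b, at 5.41, 0 and 3.73 normalised counts in control TAC and 36.2, 4.75 and 17.8 in control sham, overlapped between the groups through control sham replicate 2.

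Gpm6a had 22.7, 19.6 and 10.3 normalised counts in control TAC and 94.8, 44.6 and 44.1 in control sham. It was separated too, by a smaller ratio of 3.49-fold lower after TAC. Wt1 was not separated, with 82.2, 180 and 48.5 normalised counts in control TAC and 92.7, 87.3 and 112 in control sham. The TAC libraries lay on both sides of the sham libraries, and control TAC replicate 2, which had no read of 4 other genes, had the highest Wt1 value of the study.

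On the log2 scale the control TAC minus control sham differences were −3.56 ± 0.63 (SE) for Upk3b, −3.52 ± 0.77 for Muc16, −3.51 ± 0.84 for Msln, −3.18 ± 0.75 for Lrrn4 and −3.10 ± 0.77 for Krt19. They were −2.35 ± 0.87 for Upk1b, −1.72 ± 0.37 for Gpm6a and −0.11 ± 0.35 for Wt1. The median of the 8 was −3.14, against 0.007 over all tested genes. Leaving out 1 library moved that median: it was −4.00 without control TAC replicate 1, −2.40 without control TAC replicate 2, −2.65 without control sham replicate 1 and −3.03 without control sham replicate 3. In the fit over all genes, 6 of the 8 fell under the threshold with a lower level after TAC, all but Upk1b and Wt1, where 21.6% of all tested genes did in either direction and 10.6% with a lower level. The same 6 had all TAC libraries below all sham libraries, as did 17.7% of all tested genes. The genes were chosen on these values, so both counts carry no test of them.

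**Figure D2:**
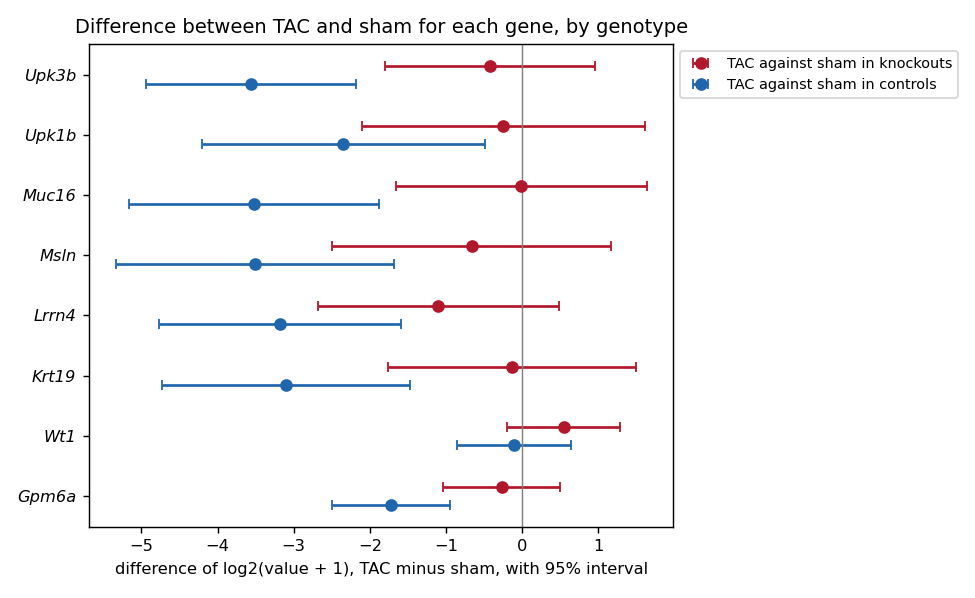
Difference of log2(normalised count + 1), TAC minus sham, for each gene in knockouts (red) and in controls (blue); points are limma estimates from 3 libraries a group and bars are 95% intervals. In knockouts all 8 intervals include 0, while in controls the interval of Wt1 alone does; the control values led to the choice of these genes.

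Between the genotypes after sham surgery the 8 genes overlapped throughout. The knockout minus control log2 differences ran between −0.80 for Krt19 and 0.08 for Lrrn4, with a median of −0.31 against 0.025 over all tested genes. Without each library in turn that median ran from −0.81 (without control sham replicate 2) to 0.01 (without control sham replicate 1), Muc16 from −0.84 to 0.56 and Lrrn4 from −0.37 to 0.78. limma called 0 of the 8, as for all tested genes (0%), and at an unadjusted p under 0.05 it also called 0 of the 8, against 4.34% of all tested genes. By edgeR, DESeq2 and voom the count was likewise 0. The intervals remained broad, for Upk3b from −1.62 to 1.13 around −0.24 and for Krt19 from −2.43 to 0.83.

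After TAC, the group means were higher in knockouts than in controls for all 8 genes. Upk3b averaged 87.8 ± 54.6 normalised counts in knockout TAC and 11.1 ± 9.09 in control TAC (SD, n = 3 each). Muc16 averaged 19.99 ± 6.77 in knockout TAC and 2.16 ± 3.75 in control TAC, and Gpm6a 39.4 ± 11.6 in knockout TAC and 17.5 ± 6.48 in control TAC. For these 3 genes every knockout library was above every control library, as it was for 15.6% of all tested genes. For Upk1b, Msln, Lrrn4 and Krt19 the ranges overlapped because knockout TAC replicate 3 was below control TAC replicate 1, for Msln at 9.82 against 15.1 normalised counts. The log2 differences, knockout minus control, were 3.37 ± 0.77 for Muc16, 2.89 ± 0.63 for Upk3b, 2.52 ± 0.84 for Msln, 2.17 ± 0.77 for Krt19, 2.15 ± 0.75 for Lrrn4, 1.5 ± 0.87 for Upk1b, 1.16 ± 0.37 for Gpm6a and 0.30 ± 0.35 for Wt1.

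limma called 2 of the 8 in that comparison, Upk3b and Muc16, where 8.23% of all tested genes were called and 4.1% were called higher in knockouts. The count moved with single libraries: it was 0 without knockout TAC replicate 1, without knockout TAC replicate 2 or without control TAC replicate 2, 6 without knockout TAC replicate 3 and 4 without control TAC replicate 1. Where the calls were lost, the log2 differences were 2.76, 2.43 and 2.63 for Upk3b and 3.33, 3.15 and 2.89 for Muc16. The calls over all genes were 214, 202 and 275 there, against 1145 with all libraries. Without each library in turn the difference ran from 0.68 to 2.23 for Upk1b and from −0.13 to 0.80 for Wt1. Without control sham replicate 3, or without control sham replicate 1, the count was 3. Because the comparison contains the control TAC libraries that led to the choice, nothing is read from the count or the differences. Other cell types' markers differed in it too: of 10 fibroblast markers 0 were higher and 6 lower in knockouts, of 10 ventricular cardiomyocyte markers 5 were higher and 2 lower, and of 8 tested atrial markers 2 were higher and 4 lower. Their part in the mesothelial values was not tested.

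The difference between both TAC effects, knockout minus control, was 3.51 ± 1.09 for Muc16, 3.13 ± 0.89 for Upk3b, 2.97 ± 1.09 for Krt19 and 2.85 ± 1.18 for Msln on the log2 scale. It was 2.10 ± 1.24 for Upk1b, 2.08 ± 1.06 for Lrrn4, 1.45 ± 0.52 for Gpm6a and 0.65 ± 0.49 for Wt1. By limma 0 of the 8 passed after adjustment, where 0.309% of all tested genes did. At an unadjusted p under 0.05, 5 of the 8 did, against 16.5% of all tested genes. edgeR called 0 and DESeq2 1 (Upk3b), which was also called by limma without knockout TAC replicate 3. The TAC effects in knockouts and in controls share no library, but the control effect is the one used in the choice of genes, so a difference of this sign is no independent result.

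Ordered by group mean, control TAC was the lowest of the 4 groups for 7 genes and control sham the highest for the same 7. Knockout TAC and knockout sham lay between, with overlapping libraries for 6 of those 7; Lrrn4 was the exception. For Wt1 the order was knockout TAC (112 ± 19.4 normalised counts, SD, n = 3), control TAC (104 ± 68.5), control sham (97.3 ± 12.9) and knockout sham (77.4 ± 18.9), and each group overlapped its neighbour.

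Within groups, most of the genes varied together from library to library. Knockout TAC replicate 2 had the highest value of its group for 7 of the 8 genes and the lowest for Wt1, while replicate 3 had the lowest for the same 7 and the highest for Wt1. In knockout sham, replicate 1 was the highest for 7 genes and replicate 3 the lowest for all 8. In control TAC, replicate 1 was the highest for 7 genes, Wt1 being the exception. In control sham, replicate 2 was the lowest for 7 genes, Gpm6a being the exception.

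**Figure D3:**
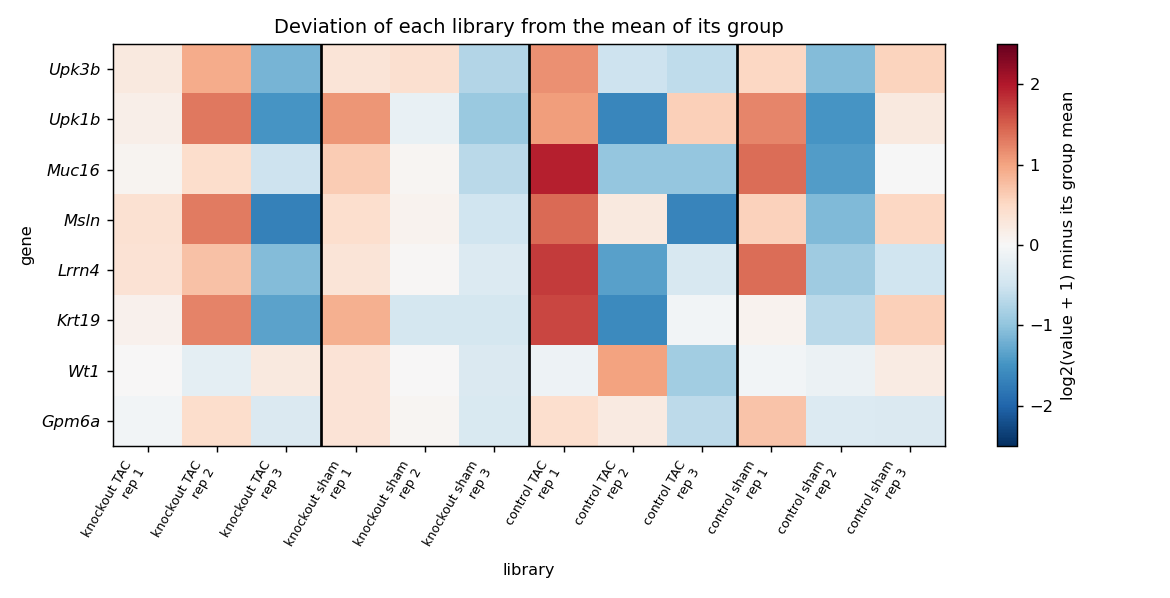
Deviation of log2(normalised count + 1) from the mean of the library's own group, for 8 genes (rows) and 12 libraries (columns, in 4 groups separated by black lines); red is above and blue below the group mean. The upper 6 rows mostly share their colour within a column, Gpm6a follows with smaller deviations, and Wt1 shows a different pattern.

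Over the 12 libraries, the within-group deviations of 24 of the 28 pairs of genes had a positive Pearson correlation, with a median r of 0.72 and a range of −0.38 to 0.92 (median Spearman rho 0.73). These are descriptions over libraries that share depth and scaling, and the deviations of 3 libraries of a group sum to 0. The 6 genes Upk3b, Upk1b, Muc16, Msln, Lrrn4 and Krt19 formed 15 pairs with a median r of 0.81. These pairs ran from 0.60 (Upk1b with Msln) to 0.92 (Muc16 with Lrrn4). This subset leaves out Wt1 and Gpm6a, which had the lowest r with the mean of the mesothelial genes (−0.04 and 0.78). The higher median r of the 6 genes is therefore partly built in. Gpm6a correlated with those 6 at a median r of 0.69 (0.42 to 0.79). Wt1 stood outside, with a median r of −0.01 over its 7 pairs (−0.38 to 0.34). Without knockout TAC replicate 3 and control TAC replicate 1, the libraries farthest from the median, the median over all pairs was 0.63, and without control sham replicate 3 it was 0.77. The 6 genes mostly varied together over the 12 libraries, which in part follows from how the subset was formed. In control TAC they had only 12 to 60 reads a library between them. In that group they shared replicate 1 as the highest library but not the lowest. The deviation of Upk1b was −1.64 in replicate 2 and 0.60 in replicate 3, and that of Msln was 0.24 and −1.65.

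The size of the shared swing is seen in the summed level of those 6 genes, with Wt1 and Gpm6a left out. It was 189, 323 and 66.5 normalised counts in knockout TAC replicates 1 to 3 and 306, 253 and 143 in knockout sham. It was 64.9, 12.4 and 13.1 in control TAC and 455, 126 and 367 in control sham. Knockout TAC replicate 3 was thus level with control TAC replicate 1, while the other two knockout TAC libraries lay within the range of the sham groups. Over the 3 libraries of a group, the 6 genes had 548 reads in knockout TAC, 736 in knockout sham, 86 in control TAC and 993 in control sham.

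Wt1 was set against Upk3b within each library to show how its pattern departed. The ratio of its value to that of Upk3b was 1.25, 0.656 and 4.03 in knockout TAC and 0.766, 0.575 and 0.970 in knockout sham. It was 3.80, 29.2 and 8.67 in control TAC and 0.540, 1.56 and 0.635 in control sham. The ratio was above 3 in the 3 control TAC libraries and in knockout TAC replicate 3, the libraries in which the summed 6 genes were lowest. Upk3b is itself a large part of that sum, so this coincidence is partly built in. The ratio of Msln to Upk3b, by contrast, stayed between 0.3 and 0.7 in 10 libraries, and its extremes of 0.167 and 1.00 were in control TAC replicates 3 and 2, with 6 reads of Upk3b each.

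A wider list of 28 other mesothelial and epicardial genes gave a mixed picture. Pdpn and Calb2, markers of mesothelium elsewhere, were listed at 0 in all libraries, and 18 of the 28 were tested. In knockouts, 0 of the 18 passed for TAC against sham; the lowest p belonged to Anxa8, an annexin, with a log2 difference of 1.10 ± 0.52 (limma adjusted p = 0.735). In controls 1 rose and 2 fell after TAC, beside 21.6% called over all tested genes, so the list was not called more often than that. The median log2 difference of the 18 was −0.33, against 0.007 over all tested genes. Efemp1, a matrix glycoprotein, had 164, 61.8 and 103 normalised counts in control TAC and 335, 174 and 235 in control sham (log2 difference −1.22 ± 0.31, limma adjusted p = 0.0137). Its TAC libraries were all below its sham libraries, as for 17.7% of all tested genes. Rspo1, a secreted enhancer of Wnt signalling, had 11.9, 2.06 and 0.932 normalised counts in control TAC and 42.6, 9.49 and 20.3 in control sham. The Rspo1 groups overlapped, with a log2 difference of −2.33 ± 0.68 (limma adjusted p = 0.0241). Nkain4 differed by −2.24 ± 0.79 without passing (limma adjusted p = 0.0544). Prg4, lubricin, moved the other way, with 243, 245 and 323 normalised counts in control TAC and 132, 109 and 114 in control sham (log2 difference 1.17 ± 0.23, limma adjusted p = 0.00249).

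Prg4 was also the one gene of that list to pass between the genotypes after TAC, lower in knockouts at 105, 76.5 and 165 normalised counts in knockout TAC against 243, 245 and 323 in control TAC. The log2 difference, knockout minus control, was −1.28 ± 0.23 (limma adjusted p = 0.00517). Bnc1, a transcription factor of mesothelium, had 16.4, 11.1 and 5.45 normalised counts in knockout TAC and 3.24, 0 and 0 in control TAC. The log2 difference of 2.77 ± 0.83 did not pass (limma adjusted p = 0.0502). Bnc1 entered the test through knockout TAC replicates 1 and 2 and control sham replicate 1 (19.2) only, and its control TAC values are near the floor.

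By within-group deviation, part of the wider list varied with the mean of the 8 genes. Ranked by Pearson r over 12 libraries among 13916 genes, Krt7 was at rank 5 (r = 0.90), Efemp1 at rank 7 (0.90), Rspo1 at 10 (0.89), Pkhd1l1 at 17 (0.87) and Bnc1 at 43 (0.81). Nkain4 was at 98 (0.74) and Aldh1a2, a retinoic acid synthesising enzyme of epicardium, at 110 (0.73). The epicardial transcription factors Tcf21 and Tbx18 had r of 0.49 and −0.42, and Prg4 had −0.50. The median r over the 18 tested genes was 0.49, against −0.01 over all tested genes. Such a value was not particular to this list: it was 0.49 for macrophage and 0.46 for fibroblast markers, but 0.04 for endothelial and −0.08 for ventricular cardiomyocyte markers.

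The 10 genes outside the 8 whose within-group deviations were most like the mean of the 8 were Igfbp5 (r = 0.92), Krt7, Gpc3, Efemp1, Cyp2s1, Pigz, Rspo1, Islr, Fzd3 and Slco2a1 (0.88), all over 12 libraries. Of these, 3 belong to the wider mesothelial list. Igfbp5, which encodes a binding protein of insulin-like growth factors, headed this ranking although its group means ran in another order: it averaged 1777 ± 156 normalised counts in knockout TAC, 1719 ± 209 in knockout sham, 2241 ± 658 in control TAC and 1928 ± 553 in control sham (SD, n = 3 each). Gpc3, a glypican, followed both, with 46.7 ± 6.68 in knockout TAC, 71.0 ± 20.3 in knockout sham, 29.99 ± 18.0 in control TAC and 95.8 ± 39.4 in control sham. By level over the 12 libraries, group differences included, the 10 most alike were Efemp1 (r = 0.95), Rspo1 (0.95), Cyp2s1, Gpc3, Tecr, Retnla, G0s2, Eepd1, Tspan2 and Prcc (0.90). Retnla had 79.2, 142 and 26.2 normalised counts in knockout TAC and 117, 102 and 79.6 in knockout sham. It had 90.8, 6.18 and 9.32 in control TAC and 113, 110 and 110.2 in control sham. Without control sham replicate 3, 3 of the first 10 and 7 of the second 10 were again among the 10 most alike.

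Markers of other cell types were set beside these swings. Of the adipocyte list (10 genes), Lpl and Pnpla2 are also expressed in heart muscle and made up nearly all of its sum, which was 82083 to 83159 normalised counts in knockout TAC, 74168 to 83480 in knockout sham, 67084 to 77360 in control TAC and 51693 to 96628 in control sham. The other 8 adipocyte genes, a subset formed after their values were seen, summed to 14.5, 734 and 14.2 normalised counts in knockout TAC and 45.8, 77.5 and 121 in knockout sham. They summed to 105, 13.4 and 53.1 in control TAC and 36.2, 7.60 and 41.5 in control sham. Knockout TAC replicate 2 held by far the most, with Car3 at 277, Cfd (adipsin) at 263 and Adipoq (adiponectin) at 65.4 normalised counts, and it was also the highest of its group for 7 of the 8 mesothelial genes. Control TAC replicate 1 and control sham replicate 2 were likewise the highest and the lowest of their groups in both sums, whereas in knockout sham the order of the libraries was opposite. The part of adipose tissue in the result was not tested.

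**Figure D4:**
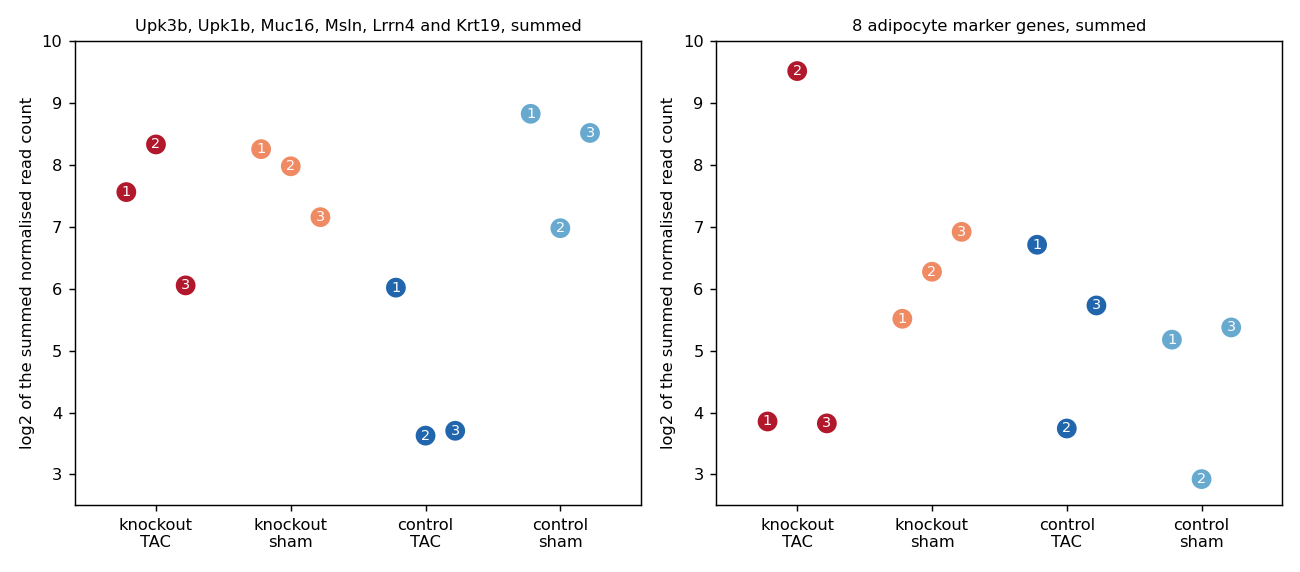
Summed normalised counts on a log2 scale of Upk3b, Upk1b, Muc16, Msln, Lrrn4 and Krt19 (left) and of 8 adipocyte markers (right); circles are libraries with their replicate number. Knockout TAC replicate 2 is the highest of its group on both sides (323 and 734), while the knockout sham libraries run in opposite orders.

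Atrial cardiomyocyte markers also differed between the control groups. Of 8 tested atrial genes, 5 rose and 2 fell in controls after TAC. The list summed to 2015 to 2610 normalised counts in knockout TAC, 1713 to 1784 in knockout sham, 3329 to 6538 in control TAC and 1275 to 1686 in control sham, and none of its 10 genes was at 0 throughout. Nppa alone made up most of the sum in both TAC groups. It had 1848, 1779 and 1182 normalised counts in knockout TAC and 2286, 5749 and 2651 in control TAC. Sln, sarcolipin, counted among those 5, had 24.9, 40.2 and 69.9 normalised counts in control TAC and 1.07, 0.949 and 1.70 in control sham. It passed the filter through control TAC alone, so its log2 difference of 4.26 ± 0.68 is a description and carries no test. Myl4, an atrial light chain, rose by 2.59 ± 0.31 on the log2 scale in controls (limma adjusted p = 9.21e-05). Of 10 fibroblast markers, 4 rose and 1 fell in controls after TAC, and their sums were 24598 to 32051 in knockout TAC, 32125 to 33683 in knockout sham, 33202 to 34597 in control TAC and 31232 to 38921 in control sham. Of 10 endothelial markers 1 fell, of 10 pericyte and smooth muscle markers 3 fell, and of 10 macrophage markers 0 passed in that comparison. Of 10 ventricular cardiomyocyte markers 3 rose and 4 fell, and of 7 tested Schwann and neuronal markers 2 fell, Mbp and Dbh. These counts stand beside 21.6% called over all tested genes. The part of these cell types in the mesothelial result was not tested. In knockouts 0 genes of these lists passed for TAC against sham, where 0.00719% of all tested genes did. At an unadjusted p under 0.05 by limma, 5 of the 8 tested atrial genes did, against 6.68% of all tested genes. Across libraries, the within-group deviations of the mesothelial mean had a median r of 0.59 with the 3 tested genes of the adipocyte subset (0.46 with the 5 tested of the full list). The median r was 0.49 with the macrophage markers, 0.46 with the fibroblast markers and 0.04 with the endothelial markers. It was −0.004 with the atrial markers and −0.08 with the ventricular cardiomyocyte markers, against −0.01 over all tested genes.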

How the data were processed

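Libraries were made from TRIzol-extracted RNA with the TruSeq Stranded mRNA kit, per the labels' protocols. STAR, SAMtools, featureCounts and the build GRCm38.p6 are named, without versions, per the submitters' processing notes; these sources do not give the strand setting, annotation or normalisation tool. The deposited table holds a signal per gene and library that the authors made by dividing reads by 1 size factor per library: 100% of values were whole multiples of a step within 0.01, and the factors equal median-of-ratios factors. Reads were recovered from those steps.

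Genes with 3 or more libraries at 10 or more were tested (13916). limma 3.58.1 in R 4.3.3 (trend, robust) was fitted to log2(value + 1) of all 12 libraries with 4 group means and 5 contrasts, with Benjamini-Hochberg adjustment at 0.05; a fold on that scale understates low genes. Alternatives used edgeR 4.0.16, DESeq2 1.42.0, voom, other pseudocounts, filters and scalings, a replicate block, length and GC trend removal, and leaving out each library. Floors for 0 reads cover counting error only. Gene positions and exon lengths came from GENCODE. Libraries of a group differed by more than sampling noise (chi-square per gene at least 5.55).

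The 8 genes, the marker lists and the tests were chosen with earlier results of these data known. The rule named all 8 genes, up to 4 genes of smallest p per marker list and comparison described, and the 10 most alike by each of 2 measures; predicted genes were named only where they overlap a member. Car3, Cfd, Adipoq, and the marker genes given by correlation alone, were named after their values were seen.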

Additional observations from a re-analysis of the deposited data

How the results depend on the processing

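For TAC against sham in knockouts, 0 of the 8 genes passed under every alternative run. The log2 difference of Krt19 was 0.092 by edgeR, 0.080 by DESeq2 and 0.28 by voom, against −0.14, and voom gave 0.17 for Upk1b and 0.14 for Muc16. Without each library in turn the differences ran from −0.89 to 0.16 for Upk3b, −0.91 to 0.49 for Upk1b, −0.35 to 0.30 for Muc16, −1.31 to 0.18 for Msln and −0.76 to 0.53 for Krt19. The cause of these turns was not tested.

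With a pseudocount of 5 the median difference was −1.95 for TAC in controls and 1.19 for knockout against control after TAC. With a minimum of 30, 4 of the 8 genes were left to test, and 3 were called for TAC in controls. That count was 5 with no filter (Msln lost), 4 by voom (Upk3b and Msln lost) and 7 by DESeq2 (Upk1b added). It was 5 without control sham replicate 3 (Msln lost) and 5 to 7 without each library in turn. For knockout against control after TAC, 1 gene was called with no filter, 1 with a minimum of 30, 1 by edgeR, 5 by DESeq2, 4 by voom and 0 to 6 without each library in turn. For the difference of TAC effects, 1 was called by DESeq2 and 0 to 1 without each library in turn. That difference uses all 12 libraries, so it has no fit to its own libraries alone.

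Deviations of samples with the same replicate number correlated weakly (−0.07 to 0.16). In a comparison, 2 to 4 of 6 libraries correlated best with their own number, the 4 being TAC against sham in controls. With 3 libraries a group, these values cannot exclude that the numbers pair the samples. With the replicate block the count was 5 of the 8 for knockout against control after TAC, 7 for TAC in controls and 0 in the other comparisons; over all genes it was 1198 and 3151 in those 2, and 3 for TAC in knockouts.

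Over all genes, TAC in knockouts gave 1 call as reported, 2 with no filter, 23 by DESeq2, 32 with its libraries alone, 843 by voom and 0 to 7 without each library. TAC in controls gave 3006, 1433 with its libraries alone, 1369 once values were corrected for length and GC and 1549 to 3656 without each library. Knockout against control after TAC gave 1145, 3812 by voom, 505 with that correction and 202 to 2143 without each library. The difference gave 43, 65 with a pseudocount of 5, 124 with no filter, 463 by DESeq2, 1573 by voom, 95 with total read scaling, 23 with that correction and 8 to 755 without each library. In control TAC, Upk1b, Muc16, Lrrn4 and Krt19 rest on 0 to 8 reads a library.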
